A study of Mus musculus with 12 samples.

Results

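The genes described here are 39 members of the pluripotency network, that is the transcription factors, signals and marker genes of mouse cells that can still form every tissue of the embryo. They were chosen by symbol: every probe set whose platform annotation gave a single one of the 39 names was used. All 39 had at least 1 probe set. They made up 39 of the 16509 genes named on the array and 78 of the 37600 probe sets tested, and no member was left out by a filter on low values.

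The members with 1 probe set are the 16 genes Pou5f1, Nanog, Sox2, Klf2, Prdm14, Otx2, Zfp42, Dppa3, Dppa4, Dppa5a, Fbxo15, Tdgf1, Myc, Eras, Tcl1 and Cdh1. Those with 2 are the 12 genes Klf4, Tfcp2l1, Sall1, Sall4, Zfp281, Tcf7l1, Dppa2, Nodal, Gdf3, Fgf5, Lin28a and Epcam. Klf5, Esrrb, Utf1, Mycn, Lifr and Socs3 have 3, and Tbx3, Rif1, Fgf4, Il6st and Stat3 have 4.

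The cells were F9 mouse teratocarcinoma cells, an embryonal carcinoma line that divides as undifferentiated stem cells and forms endoderm after exposure to retinoic acid. Wild-type (WT) F9 cells and F9 cells labelled RARaKO, a knockout of retinoic acid receptor alpha, each received 0.1% ethanol as vehicle or 1 µM all-trans retinoic acid (atRA) for 7.5 h. All 4 groups, the vehicle groups included, had first received 1 µg/ml cycloheximide, an inhibitor of protein synthesis, for 30 min, and kept it for 8 h in all, so no group shows these cells without it. Each group had 3 arrays, labelled sets 2, 3 and 4. The sources used here do not state how the knockout was made, whether the line is 1 clone, or whether the sets are separate cultures. Error bars and p-values below thus rest on the spread from array to array, which could be technical rather than biological.

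Pou5f1 (Oct4), Sox2 and Nanog bind many of the same regulatory regions and hold one another and a wider circle of factors active in the undifferentiated state. Leukaemia inhibitory factor (LIF), acting through the receptors Lifr and Il6st on Stat3, sustains the naive form of that state, while Fgf4 and Otx2 belong to the path towards the primed form. Retinoic acid is known to silence this network in F9 cells when they become endoderm, and cycloheximide limits the early response to changes that need no newly made protein.

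The deposited values are on a log scale, taken here as log2 (as GCRMA, the method that made them, gives), and the 12 values of each probe set have a median of 0. A value of 0.30 is therefore a signal 0.30 log2 units above the probe set's own middle array, and levels of different genes cannot be set against each other. The stored values fall on steps whose size depends on the signal before centring, and this step size still showed a coarse class of that signal. Of the 78 probe sets, 58 (74.4%) lay in the class of log2 8 or more and 20 in the class from 4 to 8, while 37.8% of all probe sets tested lay in the upper class. Taking 1 probe set per gene, 38 of the 39 genes lay in the upper class against 51.8% of all named genes, and Fgf5, a ligand of the primed epiblast, was the exception. All 8 genes fixed as markers of F9 cells (Pou5f1, Nanog, Sox2, Zfp42, Dppa5a, Tdgf1, Utf1 and Lin28a) lay in it. So did 12 of 13 markers of primitive and parietal endoderm, so the upper class was not particular to markers of F9 cells.

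Some checks of the whole series bear on the results. Cyp26a1, the retinoic acid-degrading enzyme and a direct target of the hormone, rose by 1.35 ± 0.08 (SE) log2 units in WT and by 1.38 ± 0.08 in the arrays labelled RARaKO. The other genes fixed as checks of the treatment were Rarb and Cdx1. Rarb rose by 1.35 ± 0.09 in WT and by 0.95 ± 0.09 in RARaKO, and Cdx1 by 1.74 ± 0.13 and 1.45 ± 0.13. Neither difference between the responses was called. In vehicle, Rarb was 0.54 ± 0.09 higher in RARaKO (limma adjusted p = 0.0039). Rara itself, read by 1 probe set, lay from -0.76 to -0.50 in WT vehicle and from 0.29 to 0.32 in RARaKO vehicle, and was 0.90 ± 0.09 log2 units higher in the arrays labelled knockout (limma adjusted p = 1.5e-04). The position of its probes relative to the disrupted part of the gene is not given in the sources used here, so the probe set does not check the label, and the groups are called by their labels throughout. RNA quality was read as the mean difference between the 5' and 3' control probe sets. This difference was -0.123 to -0.0844 in the WT vehicle arrays, -0.0248 to 0.0178 in WT atRA, -0.0227 to 0.132 in RARaKO vehicle and 0.00122 to 0.0897 in RARaKO atRA, so WT vehicle overlapped with no other group. That separation held for the mean of the Actb, Gapdh, Tfrc and Pcx controls. None of these controls alone set WT vehicle apart from every other group. For Tfrc, WT vehicle ran from -0.479 to -0.114 and RARaKO atRA set 3 stood at -0.189. The part of RNA quality in the WT response and in the genotype comparison in vehicle was not tested.

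The upstream sequences of the 3 core factors and of Eras, the gene of this network that rose with atRA in WT, are shown because retinoic acid receptors act on DNA at hexamer half-sites. The RefSeq promoter table (build GRCm38.p6) matched 26 of the 39 genes through 35 entries, and the 250 bases before the transcript start were searched in each. Capitals mark half-sites (the hexamer AGGTCA, the hexamer AGTTCA, the hexamer GGGTCA or the hexamer GGTTCA, on either strand) in Pou5f1 and Eras, the octamer core (TTTGCAT, on either strand) in Nanog and Sox2, and the Sox core (ACAATG, on either strand) in Nanog, with other matches in these windows left in lower case. The windows are chr17:35505782-35506031 on the plus strand for Pou5f1, chr6:122707239-122707488 on the plus strand for Nanog, chr3:34649745-34649994 on the plus strand for Sox2 and chrX:7928608-7928857 on the minus strand for Eras. Each is written 5' to 3' in the direction of transcription.
Pou5f1: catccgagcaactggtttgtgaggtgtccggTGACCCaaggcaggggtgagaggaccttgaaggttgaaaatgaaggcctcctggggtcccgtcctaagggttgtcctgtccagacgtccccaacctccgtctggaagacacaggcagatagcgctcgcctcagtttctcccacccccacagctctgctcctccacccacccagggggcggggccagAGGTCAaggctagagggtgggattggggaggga
Nanog: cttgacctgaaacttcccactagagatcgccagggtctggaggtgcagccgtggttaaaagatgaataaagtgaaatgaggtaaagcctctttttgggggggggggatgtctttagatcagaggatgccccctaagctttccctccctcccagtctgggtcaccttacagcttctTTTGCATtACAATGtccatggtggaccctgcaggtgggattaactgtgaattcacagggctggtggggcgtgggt
Sox2: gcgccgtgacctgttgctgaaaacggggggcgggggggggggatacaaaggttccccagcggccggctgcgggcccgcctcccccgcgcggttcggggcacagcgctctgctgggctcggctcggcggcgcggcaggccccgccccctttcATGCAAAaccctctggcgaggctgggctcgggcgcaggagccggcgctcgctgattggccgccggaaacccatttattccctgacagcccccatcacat
Eras: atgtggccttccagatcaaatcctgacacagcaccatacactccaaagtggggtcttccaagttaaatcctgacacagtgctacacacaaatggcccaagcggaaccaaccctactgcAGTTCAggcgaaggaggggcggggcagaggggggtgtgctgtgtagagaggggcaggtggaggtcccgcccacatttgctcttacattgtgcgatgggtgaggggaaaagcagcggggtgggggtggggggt

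A single half-site is a common string. It occurred in 20 of the 35 entries of the pluripotency genes (57.1%) and in 38.6% of all 32851 promoter entries. In the Pou5f1 window the capitalised half-sites begin 219 and 33 bases before the start, and in Eras 132 bases before it. A direct repeat of half-sites spaced by 1, 2 or 5 bases, the arrangements that receptor pairs bind, occurred in 0 of the 35 entries and in 0.164%, 0.174% and 0.0883% of all entries. Only exact pairs of the hexamers named above were counted, so a repeat with an imperfect half-site was missed, in Pou5f1 as elsewhere. The GC box (GGGCGG) was in 21 of the 35 entries (60%) and in 32.7% of all. The octamer core was in 4 of the 35 (Nanog, Sox2 and Zfp42) and in 4.12% of all, and the Sox core in 6 of the 35 and in 10.7% of all. In Nanog the octamer core begins 75 bases and the Sox core 67 bases before the start, side by side, and in Sox2 the octamer core begins 99 bases before it. These matches describe the letters in the windows and nothing about binding in these cells.

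**Figure D1:**
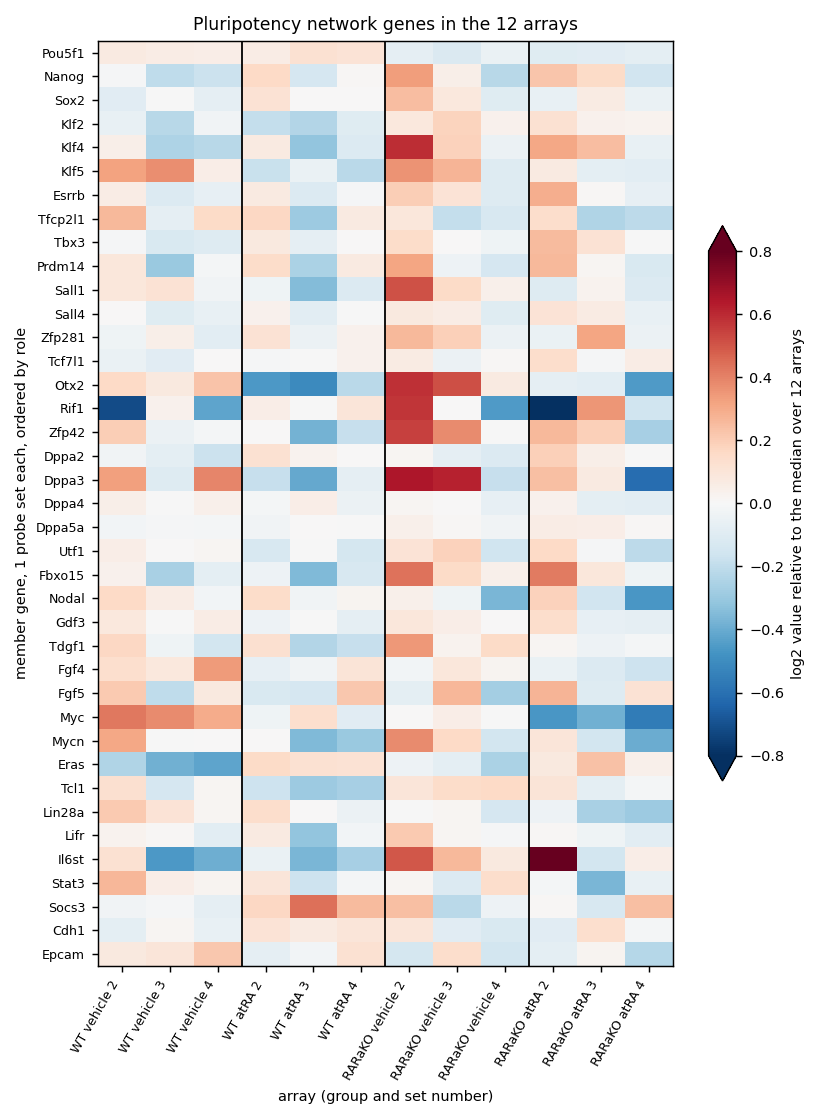
Values of the 39 pluripotency genes (rows, 1 probe set each, ordered by role) in the 12 arrays (columns, by group and set number), in log2 units, with 0 at the middle of the row. The colour scale ends at 0.8 in both directions; Myc runs from high in WT vehicle to low in RARaKO atRA, and most rows are pale.

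In WT cells, few of these transcripts were called as changed with atRA. Of the 78 probe sets, 1 rose (Eras) and 1 fell (Myc), 2.56% in all, against 0.569% of all probe sets tested (limma over the 12 arrays, Benjamini-Hochberg adjusted p under 0.05). Here and below ± gives the standard error of a difference. The core factors, the naive-state factors and the marker genes held no call. The 95% interval excluded a 2-fold fall for all 78 probe sets. The vehicle and atRA arrays did not overlap for 26 of the 78, 10 higher and 16 lower, and for 13.6% of all. At an unadjusted p under 0.05, 19 of the 78 (24.4%) passed, 6 higher and 13 lower, against 7.27% of all probe sets. The 78 lay more often in the upper signal class, and these shares were not matched for it. The median difference of the 78 was -0.04, with 44 below 0, and that of all probe sets was -0.01.

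In the arrays labelled RARaKO, Myc fell and no other pluripotency probe set was called, 1.28% of the 78 against 0.263% of all. At an unadjusted p under 0.05, 7 of the 78 (8.97%) passed, 2 higher and 5 lower, against 8.2% of all. The interval again excluded a 2-fold fall for all 78, and the arrays did not overlap for 13 of the 78 and for 12.7% of all. Averaged over both genotypes, with 6 arrays on each side, 4 of the 78 were called (5.13%, against 1.6% of all): Eras rose, and Otx2, Myc and 1 probe set of Lifr fell. With the set number as a replicate block, which paired the arrays in both responses, 8 of the 78 were called in this average, those 4 and Klf5 1451739_at, Sall1 1450489_at, Mycn 1417155_at and Mycn 1425922_a_at, while the calls over all probe sets went from 603 to 887. Without adjustment, 25 of the 78 (32.1%) had a limma p under 0.05 in this average, 6 higher and 19 lower, against 11.3% of all. The 6 arrays of each side did not overlap for 3 of the 78 and for 1.29% of all. In a bulk sample, fewer cells of a type and less RNA per cell cannot be told apart.

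**Figure D2:**
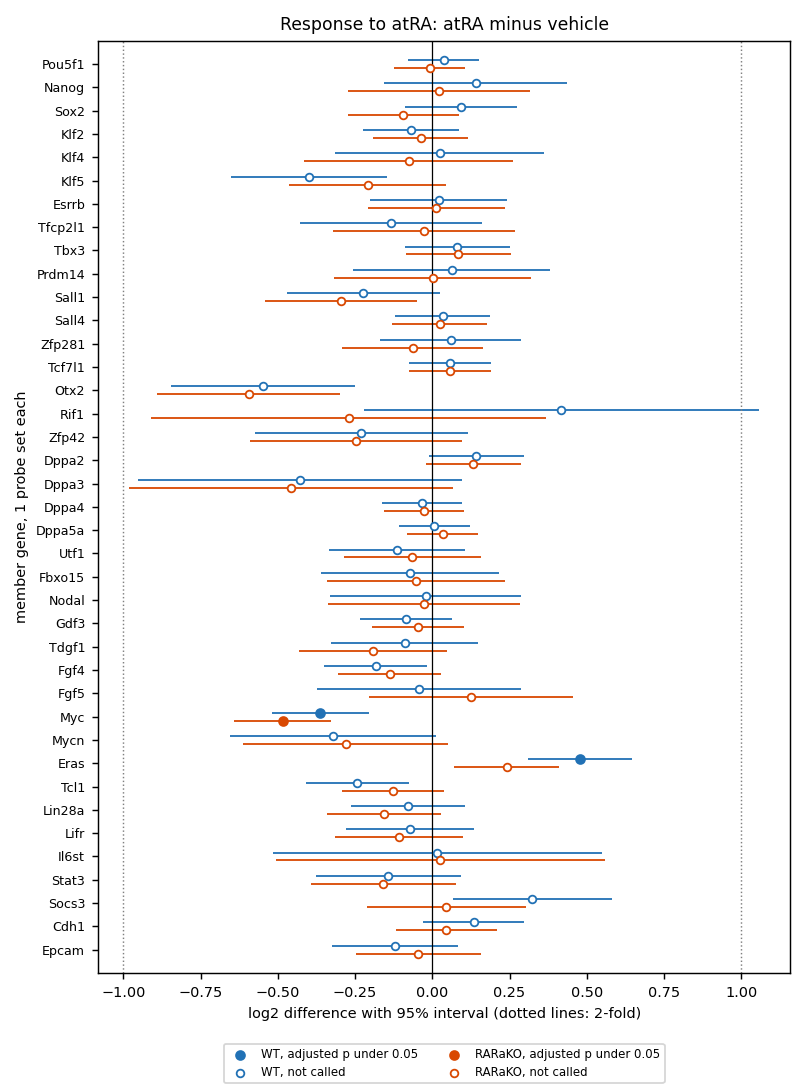
Response to atRA of the 39 genes (1 probe set each), as the log2 difference atRA minus vehicle with its 95% interval, in WT (blue) and in the arrays labelled RARaKO (orange). Filled points had an adjusted p under 0.05, which are Myc in both and Eras in WT; the dotted lines mark a 2-fold change in either direction.

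Pou5f1, the POU-domain factor without which no inner cell mass forms, stood at 0.07, 0.06 and 0.05 in the WT vehicle arrays of sets 2, 3 and 4 and at 0.06, 0.12 and 0.11 in WT atRA. In the arrays labelled RARaKO it stood at -0.07, -0.11 and -0.05 in vehicle and at -0.09, -0.09 and -0.08 in atRA. The vehicle and atRA arrays overlapped in both genotypes. The response was 0.04 ± 0.05 in WT (95% interval -0.08 to 0.15, adjusted p = 0.953) and -0.01 ± 0.05 in RARaKO (-0.12 to 0.11, adjusted p = 0.983), so a loss of more than 5.29% in WT and 8.21% in RARaKO lies outside the intervals. The 4 groups thus lay within a narrow band.

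Nanog, the homeodomain factor that allows self-renewal without LIF, stood at -0.01, -0.20 and -0.17 in WT vehicle and at 0.16, -0.13 and 0.01 in WT atRA. In RARaKO it stood at 0.34, 0.05 and -0.22 in vehicle and at 0.22, 0.15 and -0.15 in atRA. The groups overlapped, and set 4 was the lowest of both RARaKO groups. The response was 0.14 ± 0.14 in WT (-0.16 to 0.43, adjusted p = 0.911) and 0.02 ± 0.14 in RARaKO (-0.27 to 0.32, adjusted p = 0.984). The limits on a loss are wider here, at 10.2% in WT and 17.3% in RARaKO.

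Sox2, the HMG-box partner of Pou5f1, stood at -0.09, -0.00033 and -0.07 in WT vehicle, at 0.11, 0.0032 and 0.00033 in WT atRA, at 0.25, 0.08 and -0.10 in RARaKO vehicle and at -0.06, 0.07 and -0.06 in RARaKO atRA. The response was 0.09 ± 0.08 in WT (-0.09 to 0.27, adjusted p = 0.899) and -0.09 ± 0.08 in RARaKO (-0.27 to 0.09, adjusted p = 0.844). In WT every atRA array lay above every vehicle array, by a margin far smaller than the spread within a group; in RARaKO the groups overlapped.

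Among the 10 naive-state and self-renewal factors (Klf2, Klf4, Klf5, Esrrb, Tfcp2l1, Tbx3, Prdm14, Sall1, Sall4 and Zfp281), none of 22 probe sets was called in either response, and 3 passed an unadjusted p of 0.05 in WT and 1 in RARaKO. Their differences ran from -0.42 to 0.25 in WT, with a median of 0.01, and from -0.30 to 0.23 in RARaKO, with a median of -0.02. Klf5, the Krüppel-like factor of early embryonic cells, had the smallest p in WT. Its probe set 1451739_at stood at 0.32, 0.37 and 0.05 in WT vehicle and at -0.18, -0.05 and -0.22 in WT atRA, with no overlap. The difference was -0.40 ± 0.12 (adjusted p = 0.274) in WT and -0.21 ± 0.12 (adjusted p = 0.702) in RARaKO, and the other Klf5 probe sets gave -0.13 and -0.02 in WT. Tbx3, a T-box factor of self-renewal, Tfcp2l1, Prdm14 and Zfp281 gave values from -0.13 (Tfcp2l1 1418091_at) to 0.15 (Tbx3 1437479_x_at) in WT.

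Sall1, a zinc-finger factor of the same family as Sall4, had the smallest p of this group in RARaKO. Its probe set 1437983_at stood at 0.51, 0.15 and 0.04 in RARaKO vehicle and at -0.10, 0.03 and -0.11 in RARaKO atRA, a difference of -0.30 ± 0.11 (adjusted p = 0.506), with -0.22 ± 0.11 in WT. The second Sall1 probe set, 1450489_at, gave -0.42 ± 0.13 in WT (adjusted p = 0.322) and -0.24 ± 0.13 in RARaKO. Both were below 0 in both genotypes, and neither was called. Klf4, which with Pou5f1, Sox2 and Myc can reprogramme somatic cells, gave 0.02 ± 0.16 in WT and -0.08 ± 0.16 in RARaKO for probe set 1417394_at. Esrrb, an orphan nuclear receptor of the naive state, ran from 0.02 to 0.25 over its 3 probe sets in WT and from -0.06 to 0.01 in RARaKO.

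Otx2 stood apart in the group that it forms with Tcf7l1 and Rif1. Otx2, the homeodomain factor that moves cells towards the primed epiblast, stood at 0.16, 0.08 and 0.23 in WT vehicle and at -0.46, -0.51 and -0.21 in WT atRA. In RARaKO it stood at 0.58, 0.51 and 0.07 in vehicle and at -0.07, -0.09 and -0.46 in atRA. The atRA arrays lay below the vehicle arrays within each genotype and within each of the 3 sets. The difference was -0.55 ± 0.14 in WT (adjusted p = 0.152) and -0.59 ± 0.14 in RARaKO (adjusted p = 0.151), neither of which passed the threshold. Averaged over both genotypes Otx2 fell by 0.57 ± 0.10 log2 units, a fold of 1.49 (95% interval -0.78 to -0.36, adjusted p = 0.00898). That call was kept without set 4 and lost without set 2 or set 3 (adjusted p from 0.00335 to 0.222). No other probe set of the 78 had a lower value in either genotype.

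Tcf7l1, the Tcf repressor that restrains the core factors, gave 0.06 and 0.18 in WT and 0.06 and 0.07 in RARaKO for its 2 probe sets, with no call. Rif1, a telomere- and replication-associated protein enriched in stem cells, gave differences from -0.16 to 0.42 over its 4 probe sets in WT and from -0.27 to 0.01 in RARaKO, with no call.

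The marker genes of the pluripotent state (Zfp42, Dppa2, Dppa3, Dppa4, Dppa5a, Utf1 and Fbxo15) held no call among 10 probe sets in either response, and 1 passed an unadjusted p of 0.05 in WT and 0 in RARaKO. Dppa2, a chromatin-associated SAP-domain protein, had the smallest p in WT through its probe set 1453223_s_at, which stood at -0.15, -0.15 and -0.22 in WT vehicle and at 0.09, 0.02 and 0.02 in WT atRA. The difference was 0.22 ± 0.06 (adjusted p = 0.23), and in RARaKO it was 0.12 ± 0.06. Dppa3 (Stella), a maternal and germ-line protein, had the lowest values of the group, -0.43 ± 0.24 in WT (adjusted p = 0.792) and -0.46 ± 0.24 in RARaKO (adjusted p = 0.682). Its arrays in RARaKO vehicle stood at 0.64, 0.62 and -0.19. Within a set, atRA minus vehicle was -0.51, -0.31 and -0.46 in WT and -0.40, -0.54 and -0.43 in RARaKO, and the gene was not called with the set as a block either. Zfp42 (Rex1), the classical F9 stem cell marker, gave -0.23 ± 0.16 in WT and -0.25 ± 0.16 in RARaKO (adjusted p = 0.851 and 0.756), while Dppa4 and Dppa5a gave -0.03 ± 0.06 and 0.01 ± 0.05 in WT. The 3 probe sets of Utf1, a chromatin-associated factor of stem cells, ran from -0.17 to -0.06 in WT.

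Among the secreted signals Nodal, Gdf3, Fgf4 and Fgf5 and the Nodal coreceptor Tdgf1 (Cripto), no probe set of 11 was called in either response, while 4 passed an unadjusted p of 0.05 in WT and 1 in RARaKO. Fgf4, the stem cell ligand that drives ERK signalling, had the smallest p in both responses. Its probe set 1420086_x_at stood at 0.13, 0.05 and 0.27 in WT vehicle, at -0.10, -0.10 and 0.04 in WT atRA, at -0.02, 0.08 and 0.02 in RARaKO vehicle and at -0.10, -0.13 and -0.21 in RARaKO atRA. The atRA arrays lay below the vehicle arrays in both genotypes, with differences of -0.20 ± 0.07 (adjusted p = 0.441) and -0.17 ± 0.07 (adjusted p = 0.557). Probe sets 1420085_at and 1449729_at gave -0.18 and -0.24 in WT, and 1450282_at, of the lower class, gave 0.05 in RARaKO. Nodal gave -0.02 and 0.07 in WT, Gdf3, a TGF-beta family ligand, gave -0.09 and -0.15, and Tdgf1 gave -0.09 ± 0.11 in WT and -0.19 ± 0.11 in RARaKO.

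The growth regulators Myc, Mycn, Eras, Tcl1 and Lin28a held every call of the separate responses. Myc, the growth-promoting factor that LIF and Stat3 sustain in stem cells, stood at 0.42, 0.38 and 0.30 in WT vehicle and at -0.04, 0.13 and -0.09 in WT atRA. In RARaKO it stood at 0.0054, 0.05 and -0.0054 in vehicle and at -0.46, -0.38 and -0.56 in atRA. No atRA array reached a vehicle array of its own genotype, and the fall was seen in 3 of 3 sets in each. Myc fell by 0.36 ± 0.07 log2 units in WT (95% interval -0.52 to -0.20, adjusted p = 0.0499) and by 0.48 ± 0.07 in RARaKO (-0.64 to -0.33, adjusted p = 0.0146). The WT value sat at the threshold: the call was kept in 2 of 12 fits that left out 1 array, those without WT atRA set 3 and without RARaKO atRA set 4 (adjusted p over the 12 from 0.0301 to 0.245). The RARaKO call was kept in 8 of 12 (0.0100 to 0.0979) and was lost without RARaKO vehicle set 2, 3 or 4 or RARaKO atRA set 4. It was also lost when only the 6 RARaKO arrays entered the fit (adjusted p = 0.11, the highest of the other settings, whose lowest was 0.00439). The WT call was lost in that kind of fit too, with the 6 WT arrays alone (0.143, the highest of its other settings, whose lowest was 0.00781). Centring each array on its median and a robust variance prior also lost the WT call. Without any one set, neither call was kept (adjusted p from 0.226 to 0.611 in WT and from 0.246 to 0.328 in RARaKO). Averaged over both genotypes, Myc fell by 0.42 ± 0.05 (adjusted p = 8.1e-04), a call lost without set 2 and kept without set 3 or 4 (0.0236 to 0.0667).

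Eras, a Ras-like GTPase of embryonic stem cells that is active without a stimulus, was the only probe set of the 78 called as higher with atRA. It stood at -0.24, -0.39 and -0.42 in WT vehicle and at 0.15, 0.12 and 0.11 in WT atRA, and at -0.04, -0.08 and -0.26 in RARaKO vehicle and 0.08, 0.23 and 0.04 in RARaKO atRA. The WT atRA arrays lay close together and above all vehicle arrays of both genotypes. Eras rose by 0.48 ± 0.08 log2 units in WT, a fold of 1.39 (0.31 to 0.65, adjusted p = 0.0138), and the value in RARaKO was 0.24 ± 0.08 (0.07 to 0.41, adjusted p = 0.391). Averaged over both genotypes it rose by 0.36 ± 0.06 (adjusted p = 0.00455), a call kept without set 2 and lost without set 3 or 4 (0.0497 to 0.170). The WT call was kept in 7 of 12 fits without 1 array (adjusted p from 0.011 to 0.0779); it was lost without any one of the WT atRA arrays and without WT vehicle set 3 or 4. It was also lost without any one set (0.140 to 0.308). The gene is read by a single probe set of the type whose probes can match other transcripts.

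Mycn, the Myc relative of early embryonic cells, gave -0.32 ± 0.15 and -0.38 ± 0.13 in WT on the probe sets of the upper signal class (adjusted p = 0.708 and 0.431), and no call without the block. Within a set, probe set 1417155_at gave -0.31, -0.35 and -0.30 in WT and -0.28, -0.31 and -0.25 in RARaKO, and 1425922_a_at gave -0.39, -0.42 and -0.35 in WT and -0.17, -0.13 and -0.11 in RARaKO. All 6 differences of each lay below 0, and both were called in the average response with the set as a block. Tcl1, a coactivator of the kinase Akt, stood at 0.13, -0.13 and 0.01 in WT vehicle and at -0.16, -0.29 and -0.27 in WT atRA, a difference of -0.24 ± 0.08 (adjusted p = 0.339). Lin28a, which blocks the maturation of let-7 microRNAs, gave -0.08 ± 0.09 and 0.01 ± 0.07 in WT.

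In the LIF pathway (Lifr, Il6st, Stat3 and Socs3) none of 14 probe sets was called within a genotype, while 5 passed an unadjusted p of 0.05 in WT and 1 in RARaKO. Lifr, the LIF receptor, was called on 1 of its 3 probe sets when the genotypes were averaged. That probe set, 1450207_at, of the lower signal class, stood at 0.04, 0.0010 and 0.05 in WT vehicle, at -0.18, -0.10 and -0.24 in WT atRA, at 0.14, 0.31 and 0.24 in RARaKO vehicle and at -0.03, -0.17 and -0.0010 in RARaKO atRA. It was below vehicle in 3 of 3 sets of both genotypes, with differences of -0.20 ± 0.07 in WT (adjusted p = 0.409) and -0.29 ± 0.07 in RARaKO (adjusted p = 0.157), and fell by 0.25 ± 0.05 on average (adjusted p = 0.0215). The other Lifr probe sets gave -0.17 ± 0.09 and -0.09 ± 0.07 on average, and the mean of all 3 was not called (adjusted p = 0.145, against 0.00845 to 0.145 over the alternatives that kept all arrays). The call was lost without WT vehicle set 2 or 4, WT atRA set 2 or 4 or RARaKO vehicle set 3 (adjusted p over the 12 single-array fits from 0.0244 to 0.0722), and without any one set (0.173 to 0.282).

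Socs3, the feedback inhibitor that Stat3 induces, had the smallest p of the group in WT. Its probe set 1456212_x_at stood at -0.20, -0.08 and -0.15 in WT vehicle and at 0.06, 0.21 and 0.15 in WT atRA, a difference of 0.28 ± 0.09 (adjusted p = 0.314), while RARaKO gave 0.05 ± 0.09. Il6st, the shared signalling receptor gp130, gave -0.22 ± 0.07 in WT for probe set 1452843_at (adjusted p = 0.351), and Stat3 gave -0.04 to -0.31 over its 4 probe sets in WT. The adhesion molecules Cdh1 (E-cadherin) and Epcam, which hold stem cell colonies together, gave no call among 3 probe sets, and 0 passed unadjusted. Cdh1 stood at -0.08, 0.02 and -0.06 in WT vehicle and at 0.11, 0.07 and 0.09 in WT atRA, a difference of 0.13 ± 0.08 (adjusted p = 0.79), and RARaKO gave 0.05 ± 0.08. Epcam 1416579_a_at gave -0.12 ± 0.09 in WT.

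**Figure D3:**
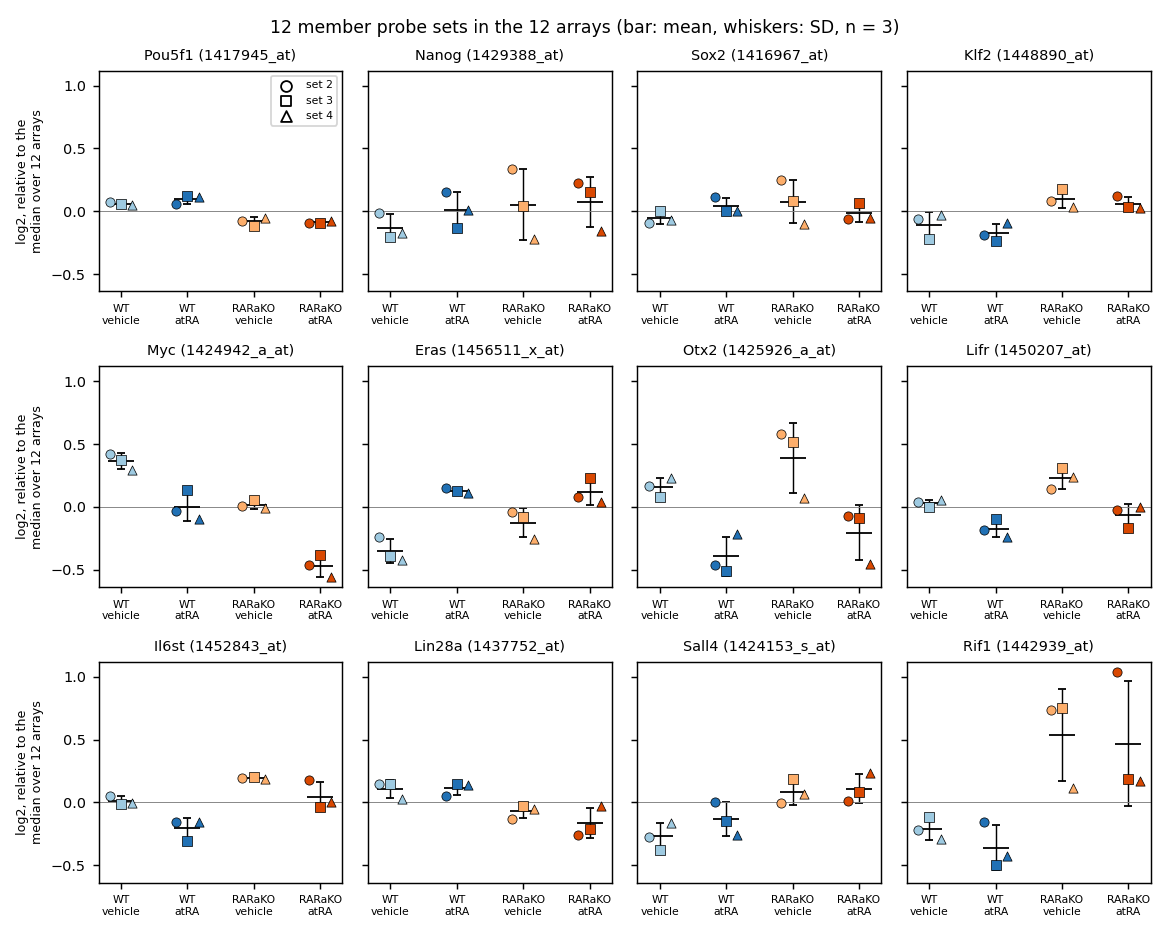
Values of 12 probe sets in the 12 arrays, in log2 units relative to the median of the probe set, by group (x axis) and set (symbol), with the mean and SD of each group (n = 3). Otx2, Myc, Eras, Lifr and Il6st separate vehicle from atRA within each genotype. Pou5f1, Klf2, Lin28a and Rif1 separate the arrays labelled RARaKO from WT.

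Other genes act around the network. Of 74 other genes of the LIF, Nodal, FGF, Wnt and pluripotency pathways, 70 had a probe set. In WT 2 of the 70 rose, Fgfr4 (0.64 ± 0.07), a receptor for FGF ligands, and Pim1 (0.62 ± 0.11), a kinase induced by Stat3, and none fell. In RARaKO Fgfr4 rose (0.57 ± 0.07) and Foxd3, a forkhead factor of stem cells, fell (-0.44 ± 0.07). Averaged over both genotypes, Pim1 and Fgfr4 rose and Foxd3 fell. These are 2, 2 and 3 of the 70, beside 0.569%, 0.263% and 1.6% of all probe sets. Fgfr4 and Foxd3 lay in the lower signal class and Pim1 in the upper. Of 37 measured marker genes of other cell types, 0 were called in WT, in RARaKO or in the average by limma, and 3, 2 and 5 passed an unadjusted p of 0.05. For the 13 markers of primitive and parietal endoderm, the mean over the list lay from -0.12 to 0.18 in the WT vehicle arrays and from -0.21 to 0.15 in WT atRA, and from -0.07 to 0.10 and -0.10 to 0.09 in the RARaKO groups. In those 13 genes, 12 lay in the upper signal class, Thbd being the exception. For the other lists that class held 4 of 9 trophoblast, 0 of 4 primitive streak and mesoderm, 2 of 6 neural and 1 of 5 fibroblast markers.

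No response to atRA was found to differ between the genotypes. The difference between the responses (RARaKO minus WT) was called for 0 of the 78 probe sets and 0 of all 37600 in limma, and at an unadjusted p under 0.05 for 0 of the 78 and for 1168 of all (3.11%). Eras had a difference of -0.24 ± 0.11 (95% interval -0.48 to 0.0025) and Myc one of -0.12 ± 0.10 (-0.35 to 0.10). So the rise of Eras was called in WT and not in RARaKO, and its size was not shown to differ between them. The interval of the difference excluded a 2-fold lower response for 77 of the 78, and no probe set of the 78 moved one way in every WT set and the other way in every RARaKO set.

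Between the genotypes in vehicle, Myc was the 1 pluripotency probe set called, lower in the arrays labelled RARaKO. That is 1.28% of the 78, against 3.01% of all probe sets. At an unadjusted p under 0.05, 13 of the 78 (16.7%) passed, 10 higher and 3 lower, against 15.3% of all, and the arrays did not overlap for 15 of the 78, against 22.4% of all. In atRA Myc was again the 1 called (1.28%, against 3.12%), and 14 of the 78 (17.9%) passed unadjusted, 9 higher and 5 lower, against 17.9% of all, with no overlap for 12 of the 78, against 20.4%. The set numbers paired the arrays in vehicle, and with the set as a replicate block 3 probe sets were called there (Myc, Klf4 1417395_at and Rif1 1442939_at). These comparisons share arrays with the responses: the WT vehicle arrays stand in both the WT response and the vehicle comparison.

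**Figure D4:**
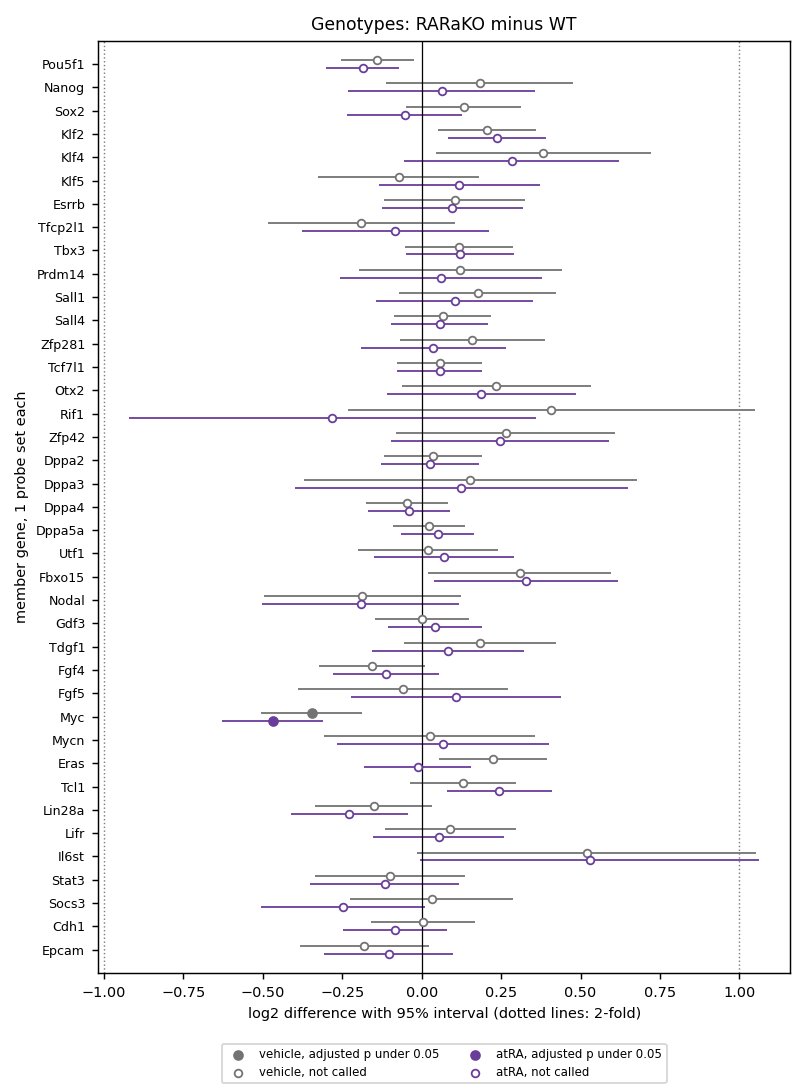
Genotype difference of the 39 genes (1 probe set each), as the log2 difference RARaKO minus WT with its 95% interval, in vehicle and in atRA. Filled points had an adjusted p under 0.05, which is Myc in both treatments; most of the other intervals cross 0.

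Myc was 0.35 ± 0.07 log2 units lower in RARaKO vehicle than in WT vehicle (adjusted p = 0.0224) and 0.47 ± 0.07 lower in atRA (adjusted p = 0.00362), in 3 of 3 sets each. Among the values given above WT vehicle was highest, WT atRA and RARaKO vehicle overlapped in the middle, and RARaKO atRA was lowest. The call in atRA was kept in 12 of 12 fits without 1 array, and the call in vehicle in 7 of 12 (adjusted p from 0.0131 to 0.0827). It was lost without RARaKO vehicle set 2, 3 or 4 and without WT vehicle set 2 or 3. Without any one set, the call was lost in atRA (adjusted p from 0.0559 to 0.0747) and in vehicle (0.125 to 0.233).

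Averaged over both treatments, with 6 arrays on each side, 9 of the 78 probe sets were called, 6 higher and 3 lower in the arrays labelled RARaKO. This is 11.5% against 10.9% of all probe sets, so the share was near the background. All 9 lay in the upper signal class. In the fit of that class alone, 11 of 58 pluripotency probe sets were called, beside 3299 of its 14213 probe sets. The median difference of the 78 was 0.05, with 51 above 0, and that of all was -0.01. The arrays of the genotypes did not overlap for 4 of the 78, and for 6.19% of all. Leaving out a whole set, which leaves 4 arrays against 4, kept the call of Myc in 3 of 3 cases, of Rif1 in 2, of Sall4 and Lin28a in 1 each, and of Pou5f1, Klf2, Il6st, Fbxo15 and Tcl1 in 0.

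Pou5f1 was the core factor among them. Its 6 RARaKO values, from -0.11 to -0.05, all lay below its 6 WT values, from 0.05 to 0.12. It was lower by 0.14 ± 0.05 in vehicle (adjusted p = 0.214) and by 0.19 ± 0.05 in atRA (adjusted p = 0.0835), and by 0.16 ± 0.04 on average, a fold of 1.12 (95% interval -0.24 to -0.08, adjusted p = 0.0155). Nanog and Sox2 gave 0.12 ± 0.10 and 0.04 ± 0.06 on average (adjusted p = 0.489 and 0.755), with overlapping arrays.

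Klf2, a Krüppel-like factor of the naive state, was higher in RARaKO. It stood at -0.06, -0.22 and -0.03 in WT vehicle, at -0.19, -0.24 and -0.09 in WT atRA, at 0.08, 0.18 and 0.04 in RARaKO vehicle and at 0.12, 0.03 and 0.03 in RARaKO atRA. All 6 RARaKO arrays lay above all 6 WT arrays, and the mean difference was 0.22 ± 0.05 (adjusted p = 0.0149), with 0.24 ± 0.07 in atRA alone (adjusted p = 0.0985).

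Sall4, the zinc-finger partner of Pou5f1, was called on 1 of 2 probe sets. That one, 1424153_s_at, stood at -0.27, -0.37 and -0.16 in WT vehicle, 0.01, -0.14 and -0.26 in WT atRA, -0.01, 0.19 and 0.06 in RARaKO vehicle and 0.02, 0.08 and 0.24 in RARaKO atRA. The RARaKO arrays lay higher, with an overlap at the value 0.01 of WT atRA set 2. It gave 0.30 ± 0.06 on average (adjusted p = 0.00995) and 0.35 ± 0.09 in vehicle (adjusted p = 0.056), while 1424152_at gave 0.06 ± 0.05. Klf4 gave 0.33 ± 0.11 and 0.36 ± 0.11 on its 2 probe sets (adjusted p = 0.0744 and 0.0512), neither of which passed. Of the 22 probe sets of the naive-state factors, 18 were above 0 on average.

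Rif1 showed the widest disagreement between probe sets of 1 gene. Probe set 1442939_at stood at -0.22, -0.11 and -0.29 in WT vehicle, at -0.15, -0.50 and -0.43 in WT atRA, at 0.74, 0.75 and 0.11 in RARaKO vehicle and at 1.04, 0.19 and 0.17 in RARaKO atRA, without overlap between the genotypes. It was 0.78 ± 0.15 higher on average (adjusted p = 0.00617), and 0.74 ± 0.22 in vehicle and 0.82 ± 0.22 in atRA (adjusted p = 0.0971 and 0.0615). The other 3 Rif1 probe sets gave 0.05 to 0.20 and no call. The value for the gene therefore depends on the probe set, and nothing in the files says which one reads the main transcript.

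Fbxo15, an F-box protein dispensable in stem cells but marking them, stood at 0.04, -0.26 and -0.08 in WT vehicle, -0.04, -0.36 and -0.13 in WT atRA, 0.43, 0.15 and 0.04 in RARaKO vehicle and 0.41, 0.09 and -0.04 in RARaKO atRA. Set 2 was the highest in each of the 4 groups, and the genotypes overlapped. The mean difference was 0.32 ± 0.09 (adjusted p = 0.0482), with 0.31 ± 0.13 in vehicle and 0.33 ± 0.13 in atRA (adjusted p = 0.288 and 0.214). The call on average was lost without any one array of WT set 3 or 4 or of RARaKO set 2 or 3 (adjusted p over the 12 single-array fits from 0.0312 to 0.111).

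Tcl1 stood at 0.10, 0.14 and 0.16 in RARaKO vehicle and at 0.10, -0.08 and -0.01 in RARaKO atRA, beside the WT values above. It was 0.19 ± 0.05 higher in RARaKO (adjusted p = 0.0439), a call kept in 3 of 12 fits without 1 array (0.0256 to 0.0990), those without WT vehicle set 2, WT atRA set 2 or RARaKO atRA set 3.

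Lin28a was lower on both of its probe sets and called on 1, 1437752_at. That one stood at 0.15, 0.15 and 0.03 in WT vehicle, at 0.05, 0.15 and 0.14 in WT atRA, at -0.13, -0.03 and -0.06 in RARaKO vehicle and at -0.26, -0.21 and -0.03 in RARaKO atRA, without overlap between the genotypes. The mean difference was -0.23 ± 0.05 (adjusted p = 0.0127), and 1421749_at gave -0.19 ± 0.06 (adjusted p = 0.0631).

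Il6st was above 0 on all 4 of its probe sets and called on 1452843_at, which stood at 0.05, -0.01 and -0.00086 in WT vehicle, at -0.16, -0.30 and -0.16 in WT atRA, at 0.19, 0.21 and 0.19 in RARaKO vehicle and at 0.18, -0.04 and 0.00086 in RARaKO atRA. The RARaKO vehicle arrays lay close together and above all others, and the mean difference was 0.22 ± 0.05 (adjusted p = 0.0137), with 0.25 ± 0.07 in atRA alone (adjusted p = 0.0742). Probe set 1437303_at gave 0.52 ± 0.17 (adjusted p = 0.0747), with its highest value, 1.00, in set 2 of RARaKO atRA. Lifr 1450207_at gave 0.15 ± 0.05 on average (adjusted p = 0.0625) and 0.20 ± 0.07 in vehicle (adjusted p = 0.167). Myc, the last of the 9 calls, was 0.41 ± 0.05 lower on average (adjusted p = 3.2e-04).

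In the main fit, the groups without a call between the genotypes were the signals and the adhesion genes. Fgf4 had the smallest p of the signals, with -0.16 ± 0.08 in vehicle for 1420085_at (adjusted p = 0.363) and 0.17 ± 0.07 in atRA for 1450282_at (adjusted p = 0.218), that is with opposite signs on different probe sets. Both Nodal probe sets gave -0.19 on average (adjusted p = 0.278 and 0.0886). Nodal 1422058_at was called on average with the set as a block, with array weights and without RARaKO atRA set 2. Epcam stood at 0.08, 0.10 and 0.21 in WT vehicle and at -0.14, 0.14 and -0.15 in RARaKO vehicle, a difference of -0.18 ± 0.09 (adjusted p = 0.397), and Cdh1 gave -0.08 ± 0.08 in atRA (adjusted p = 0.615).

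**Figure D5:**
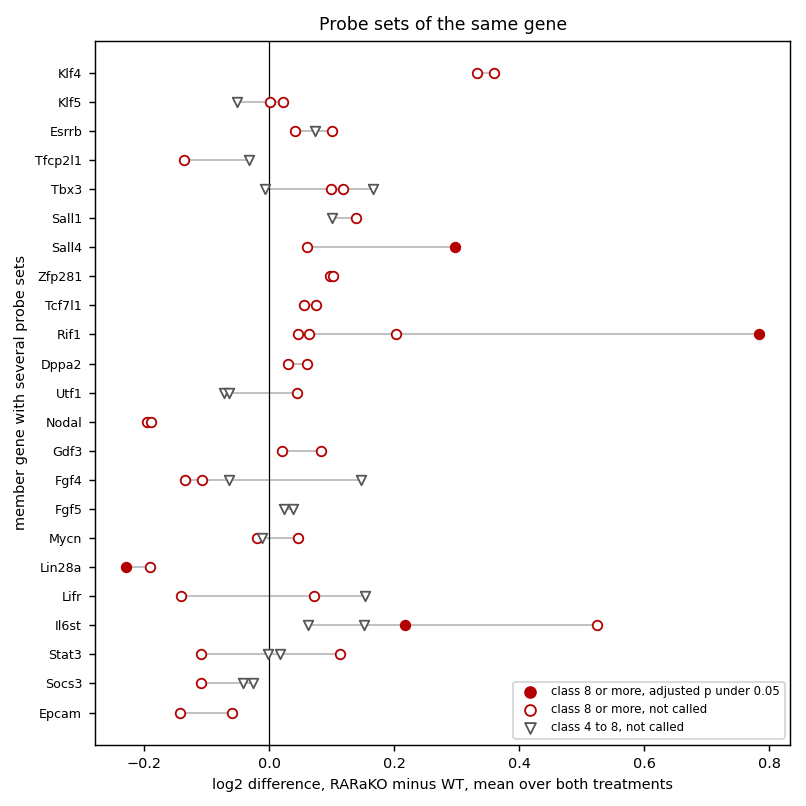
Mean genotype difference (log2, RARaKO minus WT, 6 arrays against 6) of every probe set of the 23 genes with several, joined by a line per gene. Circles are probe sets of the upper signal class and triangles those of the lower class; filled circles had an adjusted p under 0.05. Rif1 and Il6st span the widest ranges, and 16 of the 23 genes have all their probe sets on the same side of 0.

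Probe sets of the same gene often disagreed. All probe sets had the same sign in 12 of the 23 genes in the WT response, 12 in the RARaKO response, 16 in the vehicle comparison and 14 in the atRA comparison. Over the 12 arrays, which share normalization and groups, the 60 pairs of probe sets of the same gene correlated with a median r of 0.34, given as a description. For the 23 pairs with both in the upper class the median was 0.64 (-0.41 to 0.98), and for the other 37 it was 0.27. The spread within groups was also wider for these genes: the median SD was 0.128 for the 78 probe sets and 0.110 for all.

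Some arrays stood out for these genes. RARaKO vehicle set 2 held the highest of the 12 values for 19 of the 78 probe sets (24.4%), Nanog, Sox2, Klf4, Otx2, Zfp42, Dppa3 and Fbxo15 among them, and for 6.22% of all probe sets. RARaKO atRA set 2 held the highest value for 16 of the 78 (20.5%) and for 12.6% of all. In the fit without the RARaKO vehicle array of that set, 0 of the 78 were called between the genotypes in vehicle. On average 7 were called, all of them among the 9. The response then held 1 call in WT (Eras) and 0 in RARaKO. Over all probe sets, its removal took the calls from 1131 to 619 in vehicle and from 4093 to 3109 on average. Leaving out RARaKO vehicle set 3 instead gave the same counts among the 78, so this loss was not particular to set 2. WT atRA set 3 held the lowest value for 21 of the 78 (26.9%) and for 11.8% of all. Its removal left Myc called in the WT response and not Eras. Why these arrays lay apart was not tested.

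Among the 70 other pathway genes, 3 were higher and 3 lower in RARaKO vehicle, where 3.01% of all probe sets were called. Rex2 (1.05 ± 0.15), Gsk3b (0.81 ± 0.20), the kinase that marks beta-catenin for destruction, and L1td1 (0.38 ± 0.06), an RNA-binding protein of stem cells, were higher; Egr1 (-0.58 ± 0.14), an early target of ERK signalling, Fgfr4 (-0.40 ± 0.07) and Pou3f1 (-0.30 ± 0.07), a POU factor of the primed epiblast, were lower. In atRA L1td1 and Rex2 were higher, and Lefty2, Fgfr1, Fgfr4 and Etv4 lower (3.12% of all probe sets). Among these genes Rex2, Egr1, Fgfr4, Pou3f1 and Lefty2 lay in the lower signal class. On average 8 were higher and 12 lower, 5 of the 10 other FGF4 and ERK genes among the lower (Fgfr1, Fgfr4, Dusp6, Etv4 and Egr1), where 10.9% of all probe sets were called. Of the 37 markers of other cell types, Tubb3 was higher and Dcx lower in vehicle, both neural. In atRA Tubb3 was higher and Gata3, a trophoblast factor, lower. Tubb3, Dcx and Gata3 all lay in the lower signal class. The mean over the 6 neural markers lay from 0.01 to 0.03 in WT vehicle and from 0.03 to 0.10 in RARaKO vehicle, where Tubb3 was 0.65 ± 0.14 higher, and that over the 9 trophoblast markers from -0.08 to 0.09 and from -0.08 to 0.02. The part of other cells in the genotype differences was not tested.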

How the data were processed

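Total RNA from 12 samples of F9 cells was measured on Affymetrix arrays, 1 sample to each array. The deposited values are log2 expression values per probe set made with GCRMA, per the submitters' processing notes, with no version given; the log base is not stated in the sources used here and was taken as the one GCRMA gives. The median over the 12 arrays was 0 for every probe set, a centring that no label describes. No counts or spot signals were used, and the number of arrays limits the precision. Of 37661 probe sets, 61 controls were left out. The platform annotation gave 1 symbol to 30488 of the rest, several to 784 and none to 6328, and members were matched by a single symbol.

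One limma (3.58.1, R 4.3.3) fit over all 12 arrays with 1 mean for each group, without a block, gave 7 comparisons, with Benjamini-Hochberg adjustment over 37600 probe sets and 95% intervals from 12.6 degrees of freedom. Averages over genotypes or treatments weigh both groups equally. The fit was tested on simulated data. Genes with several probe sets are represented by a probe set of the highest signal class; ties went to the suffix with least cross-matching and then to the lower number. Array values and full statistics are given for every member with a call, for Pou5f1, Nanog and Sox2, and for the smallest p of each role group in each response and genotype comparison; others are summarised. The members and gene lists were chosen with earlier results of these data known.

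Set numbers were checked as pairs by the correlation of deviations from group means. Every same-number correlation exceeded 0.1 between WT vehicle and WT atRA (0.101 to 0.392), between RARaKO vehicle and RARaKO atRA (0.117 to 0.497) and between the vehicle groups (0.116 to 0.238), but not between the atRA groups (from 0.0375). Alternatives were the set as a block, leaving out each array or set, fitting only the groups compared, array weights, median centring, quantile normalization, a robust variance prior and the upper signal class alone.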

Additional observations from a re-analysis of the deposited data

How the results depend on the processing

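Each called difference among the 78 pluripotency probe sets kept its sign under the alternatives run on it. With the set number as a replicate block, which the pairing check bears out for the separate responses and for the vehicle comparison, the calls among the 78 probe sets stayed at 2 in WT, 1 in RARaKO and 0 for the difference of responses. The same block gave 3 between the genotypes in vehicle, 6 in atRA, 8 for the average response and 16 for the average genotype difference, against 1, 1, 4 and 9 without it; the calls over the whole array rose too, to 1972, 2344, 887 and 5575. Fitting only the groups compared gave 1 call in WT and 0 in RARaKO. Array weights gave 3 calls in vehicle, 2 in atRA and 14 on average between the genotypes. The calls over all probe sets were then 2071, 1710 and 5484, against 1131, 1173 and 4093 in the main fit. Quantile normalization gave 3 in vehicle and 2 in atRA, with 1401 and 1123 over all. The upper signal class alone, which holds 58 of the 78, gave 2 and 6, with 1117 and 1338 over its 14213 probe sets. Centring each array on its median and the robust prior each gave 1 call in WT, which was Eras, with Myc lost. Leaving out an array or a set gave from 0 to 2 calls in WT, 0 to 1 in RARaKO, 0 to 3 in each genotype comparison, 1 to 6 for the average response and 1 to 12 for the average genotype difference; the difference of responses stayed at 0.

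Among uncalled responses, the sign was followed only for Pou5f1, Nanog and Sox2. Their WT responses kept it in all 23 alternatives. In RARaKO it changed in 4, 6 and 1 of the 23, in that order of genes. Pou5f1 gave 0.0028 with array weights, 0.00053 after quantile normalization and -0.026 to 0.0058 when arrays or sets were left out. Nanog gave -0.053 with array weights and -0.12 to 0.16 with arrays or sets left out, and Sox2 -0.18 to 0.012. The cause was not tested in any of these cases. Probe sets of the lower signal class lie nearer to background, and their differences are less certain.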
